A study of Mus musculus with 75 samples.

Results

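The genes described here form the glucose-sensing axis of ChREBP, the carbohydrate response element binding protein: Mlxipl, which encodes ChREBP, and Pklr, Gckr, Khk, Slc2a2, Txnip, Pfkfb1 and Tkfc. They were chosen by name, as the probe sets that the array's probe-to-gene table gives to one of these 8 symbols, and where a gene had several probe sets the one with the highest mean in the tissue was used. Of the 8 genes, 6 had a probe set with a single symbol, among 19147 such genes on the array. Pklr and Pfkfb1 had no named probe set and their levels are not analysed here. Txnip had 2 probe sets and the other 5 measured genes had 1 each.

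The arrays hold RNA of liver and epididymal white adipose tissue, called fat here, from male mice that lack cannabinoid receptor 1 in every tissue (CB1-/-, called knockout here) and of littermates with the receptor (wild-type), on a C57BL/6 background (C57BL/6J, then re-derived onto C57BL/6N). From 2 months of age they were fed regular chow, in which fat supplies 13% of the energy, or high-fat food, in which it supplies 59.4%, during 14 weeks. Each mouse then received a methylcellulose vehicle or 10 mg/kg of AM251, an inverse agonist of CB1, by mouth late in the afternoon on 2 days, and tissue was collected at 10 in the morning of day 3. The 75 arrays, 39 of liver and 36 of fat, fall into 16 groups of 5 arrays. The exceptions are high-fat knockout vehicle with 4 livers and 3 fat pads and chow knockout AM251 with 3 fat pads. The food intake and body weight that the study recorded were not used here. Values are log2 intensities, so that a difference of 1 is a doubling, and a gene is said to have risen or fallen only where limma's adjusted p, corrected over all 19147 genes, was under 0.05.

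ChREBP is a transcription factor of liver and fat that is activated when glucose metabolites build up in the cell. With its partner Mlx it binds carbohydrate response elements, which are paired E-box-like elements, and switches on genes of glycolysis, fructose breakdown and fatty acid synthesis. Slc2a2 encodes GLUT2, the glucose and fructose transporter of hepatocytes, and Gckr encodes a regulatory protein of hepatocytes that responds to sugar metabolites. Khk encodes ketohexokinase, which phosphorylates fructose, and Tkfc encodes the triokinase that phosphorylates glyceraldehyde from fructose further down the same route. Pklr encodes the liver pyruvate kinase, a classic ChREBP target, and Pfkfb1 the liver enzyme that makes and removes fructose 2,6-bisphosphate. Txnip, the thioredoxin-interacting protein, is induced by glucose through ChREBP and its paralog and restrains glucose uptake.

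The promoters of Khk and Mlxipl are shown because they are the only ones among the listed genes that hold the core E-box letters CACGTG, printed in capitals. The window is the 250 bases before a RefSeq transcription start in GRCm38.p6, both strands were searched, and 6.02% of 32851 such windows of all genes hold these letters. The Khk window, chr5:30921309-30921558 on the plus strand, holds them 71 to 66 bases before the start. The window of the upstream of the 2 Mlxipl starts, chr5:135089640-135089889 on the plus strand, holds them 98 to 93 bases before the start. The Gckr window, chr5:31297313-31297562 on the plus strand, is shown for comparison because Gckr is described beside Khk throughout and holds no such match.
Khk: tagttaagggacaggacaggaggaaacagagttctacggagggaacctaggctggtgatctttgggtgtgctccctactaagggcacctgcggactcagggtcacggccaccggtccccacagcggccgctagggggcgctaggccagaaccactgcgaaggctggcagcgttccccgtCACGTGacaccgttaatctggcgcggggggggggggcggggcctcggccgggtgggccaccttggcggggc
Mlxipl: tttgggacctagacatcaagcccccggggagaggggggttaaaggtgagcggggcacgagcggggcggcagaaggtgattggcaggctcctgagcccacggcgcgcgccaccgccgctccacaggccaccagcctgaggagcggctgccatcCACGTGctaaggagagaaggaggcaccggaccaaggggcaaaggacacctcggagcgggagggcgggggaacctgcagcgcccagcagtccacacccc
Gckr: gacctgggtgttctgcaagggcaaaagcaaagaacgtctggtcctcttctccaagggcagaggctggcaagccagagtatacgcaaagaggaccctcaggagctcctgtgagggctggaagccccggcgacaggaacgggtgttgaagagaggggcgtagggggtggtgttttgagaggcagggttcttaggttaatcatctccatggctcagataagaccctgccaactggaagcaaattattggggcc
The longer paired pattern, CANGNG and CNCNTG separated by 5 bases, was found in 0.454% of all windows and in 1 of the 13 windows of the listed genes. That match lies in the Pklr promoter at chr3:89136453-89136469 on the plus strand, 170 to 154 bases before the start, and is shown because it is the only one among the listed genes.
Pklr: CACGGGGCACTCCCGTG
The windows of Slc2a2, Txnip, Tkfc and Pfkfb1 held neither pattern. A match of letters is a description of the sequence and not evidence of binding, and a window without one says only that the letters are not in these bases.

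Array medians ran from 25.8 to 28.7 intensity units in liver and from 44.3 to 48 in fat, so the tissues appear to have been normalized apart. The mean correlation of a liver array with the others of its tissue was 0.963 to 0.991, the lowest being chow knockout vehicle arrays 17 at 0.963 and 15 at 0.982, and the main results that rest on this group are also given without both. Chow wild-type vehicle array 3 came next at 0.983, and values without it are given only where a call changed. All 7 measured hepatocyte markers were higher in liver than in fat and all 7 measured adipocyte markers were lower. The Cnr1 probe set used in liver differed between knockout and wild-type chow vehicle mice by -0.05 ± 0.11 (SE). The one used in fat, which was picked separately as the brightest there, differed by -0.33 ± 0.32 (SE). Nothing here says whether either lies in the deleted stretch, so these values do not check the genotype labels. In whole tissue, fewer cells of a type and less RNA per cell cannot be told apart.

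All 6 measured genes were well expressed in liver. Their mean intensity lay at the 90.8th percentile of all probe sets for Txnip, the 96.7th for Tkfc, the 98th for Gckr, the 98.1st for Mlxipl, the 98.7th for Slc2a2 and the 99.2nd for Khk. Across the 8 liver groups the group means of Gckr spanned 0.80 on the log2 scale, those of Khk 0.80, of Slc2a2 0.83, of Tkfc 0.87, of Mlxipl 0.66 and of Txnip 1.16.

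**Figure D1:**
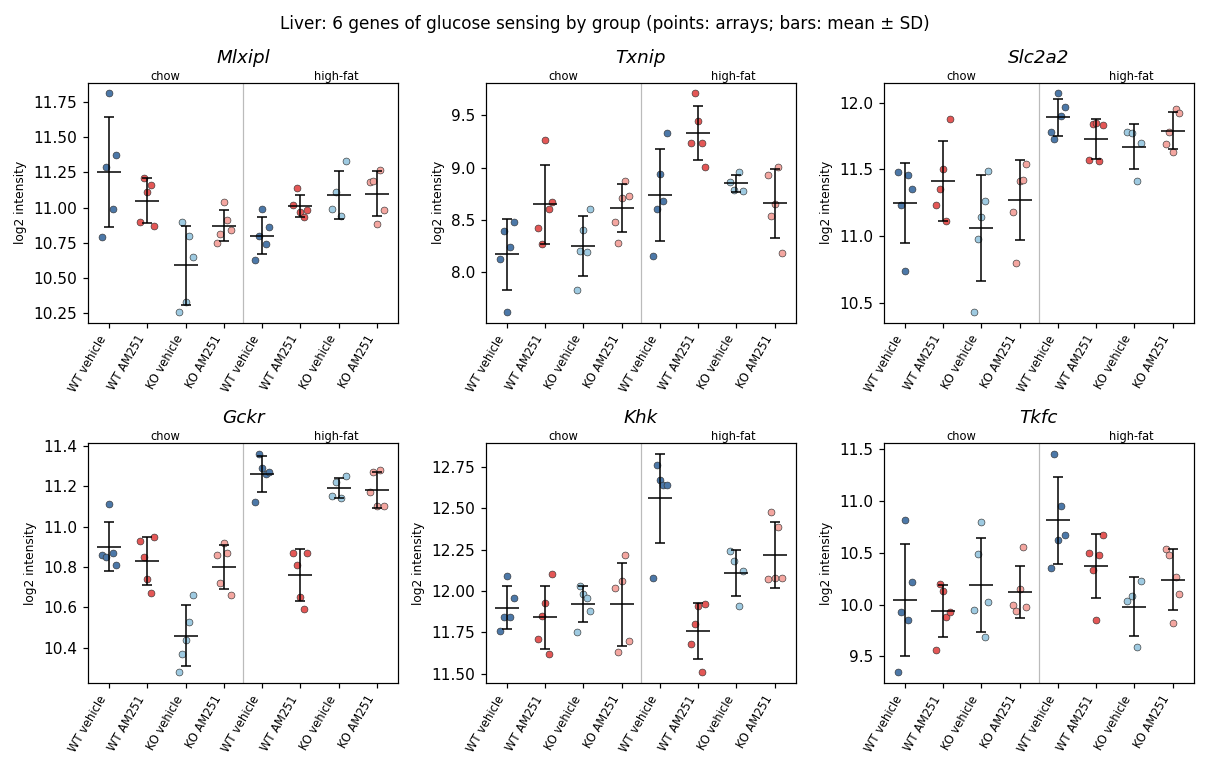
Log2 intensity of the 6 measured genes in each liver array (points) with the mean and SD of each group (bars), groups on the x axis split into chow and high-fat. The high-fat wild-type vehicle livers stand highest for Khk at a mean of 12.56, and the high-fat wild-type AM251 livers stand highest for Txnip at 9.33.

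In the order of group means, neighbours mostly lay closer together than the larger of their SDs. For Khk the only gap wider than that was between high-fat wild-type vehicle, the highest group at 12.56 ± 0.27 (SD, n = 5), and the next, high-fat knockout AM251 at 12.22 ± 0.20 (SD, n = 5). For Gckr the 3 highest groups were high-fat wild-type vehicle at 11.26, high-fat knockout vehicle at 11.19 and high-fat knockout AM251 at 11.18, separated by 0.28 from chow wild-type vehicle at 10.90. The lowest Gckr group, chow knockout vehicle at 10.46 ± 0.15 (SD, n = 5), was in turn 0.30 under high-fat wild-type AM251 at 10.76. For Txnip high-fat wild-type AM251 stood 0.48 above the next group, and the chow vehicle groups of both genotypes, at 8.17 and 8.25, stood below the other 6. Tkfc was highest in high-fat wild-type vehicle, 0.44 above high-fat wild-type AM251. The Mlxipl order had 1 such gap, of 0.14 between high-fat wild-type AM251 at 11.01 and chow knockout AM251 at 10.87, and Slc2a2 had none.

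The central comparison was that of AM251 with vehicle in wild-type mice on the high-fat diet. In high-fat wild-type liver Khk and Gckr fell, Khk 1.73-fold and Gckr 1.41-fold, while Mlxipl itself and Slc2a2 did not pass the test. In high-fat knockout mice given the same drug neither gene passed the test. Of the 6 measured genes 2 passed, both lower, where 1.91% of all genes passed (170 higher and 196 lower). At an unadjusted p under 0.05 the count was 4, against 11.2% of all genes. The median difference of the 6 genes was -0.30 and that of all genes was -0.0069.

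Khk in high-fat wild-type vehicle livers read 12.08, 12.76, 12.67, 12.64 and 12.64, and after AM251 it read 11.68, 11.80, 11.91, 11.51 and 11.92. Every treated liver lay below every vehicle liver, and the lowest vehicle liver, array 1, stood apart from the other 4. The difference was -0.79 ± 0.12 (SE, 95% interval -1.03 to -0.55, limma adjusted p = 4.2e-05). In high-fat knockout livers Khk read 12.24, 12.18, 11.91 and 12.12 with vehicle and 12.07, 12.48, 12.08, 12.39 and 12.08 with AM251, and these groups overlapped. The knockout difference was 0.11 ± 0.13 (SE, 95% interval -0.15 to 0.37, adjusted p = 0.999).

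Gckr in high-fat wild-type vehicle livers read 11.12, 11.36, 11.29, 11.26 and 11.27, and after AM251 it read 10.87, 10.81, 10.65, 10.59 and 10.87. These groups did not overlap either. The difference was -0.50 ± 0.078 (SE, 95% interval -0.66 to -0.34, limma adjusted p = 8.06e-05). In high-fat knockout livers Gckr read 11.15, 11.22, 11.14 and 11.25 with vehicle and 11.17, 11.27, 11.10, 11.28 and 11.10 with AM251. The knockout groups had almost the same mean, with a difference of -0.01 ± 0.083 (SE, 95% interval -0.18 to 0.16, adjusted p = 0.999).

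Of the remaining genes in high-fat wild-type liver, Tkfc, the other enzyme of fructose breakdown, read 10.35, 11.45, 10.62, 10.95 and 10.67 with vehicle and 10.50, 10.33, 9.85, 10.48 and 10.67 with AM251. These values overlapped, and the difference was -0.44 ± 0.21 (SE, adjusted p = 0.429). Txnip read 8.15, 8.60, 8.94, 8.68 and 9.33 with vehicle and 9.24, 9.71, 9.45, 9.24 and 9.01 with AM251. Only vehicle array 5 reached into the treated range, and the difference was 0.59 ± 0.19 (SE, 95% interval 0.21 to 0.97, adjusted p = 0.111), or 0.74 with adjusted p = 0.0221 without that array. Mlxipl differed by 0.20 ± 0.13 (SE, 95% interval -0.06 to 0.47, adjusted p = 0.589) and Slc2a2 by -0.16 ± 0.15 (SE, 95% interval -0.47 to 0.15, adjusted p = 0.773), with overlapping arrays in both.

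**Figure D2:**
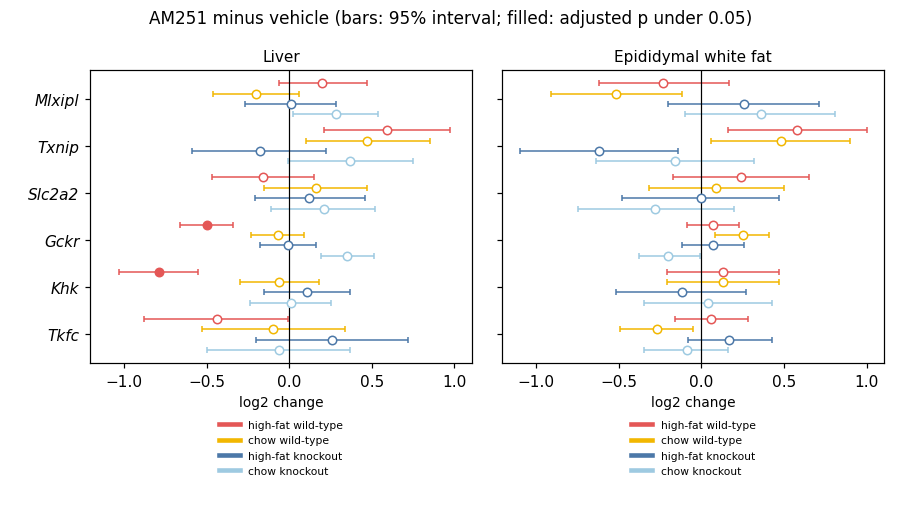
Difference of AM251 from vehicle on the log2 scale (x axis) for each gene in the 4 combinations of diet and genotype, liver on the left and fat on the right, with 95% intervals as bars and filled points where the adjusted p is under 0.05. The only filled points are Gckr at -0.50 and Khk at -0.79 in high-fat wild-type liver.

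Whether the drug acted differently in the genotypes was tested directly, as the wild-type difference minus the knockout difference. On the high-fat diet Khk and Gckr passed, 2 of 6 genes against 0.564% of all genes, both more negative in wild-type. For Khk the difference of differences was -0.90 ± 0.17 (SE, limma adjusted p = 0.00441) and for Gckr -0.49 ± 0.11 (SE, adjusted p = 0.0263). The Gckr call was lost, at values of -0.49 to -0.45 and adjusted p of 0.0513 to 0.083, without wild-type vehicle array 2, 3 or 4, wild-type AM251 array 37 or 38, knockout vehicle array 40 or 42, or knockout AM251 array 46 or 48. Txnip at 0.77 ± 0.27 (SE, adjusted p = 0.338) and Tkfc at -0.70 ± 0.31 (SE, adjusted p = 0.585) did not pass.

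On chow the drug had no called effect on these genes in liver. In chow wild-type livers 0 of 6 genes passed limma's test, where 0% of all genes did. At an unadjusted p under 0.05 the count was 1 of 6 against 10.8% of all genes, the 1 being Txnip at 0.47 ± 0.19 (SE, adjusted p = 0.36). Khk differed by -0.06 ± 0.12 and Gckr by -0.07 ± 0.078 (SE). The diet difference of the effect in wild-type mice, high-fat minus chow, was -0.74 ± 0.17 for Khk (SE, adjusted p = 0.0446) and -0.43 ± 0.11 for Gckr (SE, adjusted p = 0.0984), so 1 of 6 genes passed against 0.251% of all. The Khk call was lost, at -0.75 to -0.67 and adjusted p of 0.0541 to 0.126, without high-fat AM251 array 33, 35 or 38, high-fat vehicle array 2, 3, 4 or 5, chow AM251 array 10, 11 or 13, or chow vehicle array 1, 2, 4 or 5, and Gckr passed without chow vehicle array 3 at -0.48 (adjusted p = 0.0449). With only the compared groups fitted Khk gave an adjusted p of 0.069 and after quantile normalization 0.0511.

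In high-fat knockout livers AM251 moved none of the 6 genes past the threshold and 0 reached an unadjusted p under 0.05, where 0.0104% and 3.36% of all genes did. In chow knockout livers 0 of 6 passed, against 0.125% of all genes, and 2 of 6 had an unadjusted p under 0.05, against 13.9%. Those 2 were Gckr at 0.35 ± 0.078 (SE, limma adjusted p = 0.0547) and Mlxipl at 0.28 ± 0.13 (SE, adjusted p = 0.318). The Gckr value in chow knockout mice passed without vehicle array 18 (0.37, adjusted p = 0.0179) or 19 (0.40, adjusted p = 0.019), and was 0.28 (adjusted p = 0.347) without arrays 15 and 17. The chow genotype difference of the drug effect gave 0 of 6 past the threshold against 0% of all genes, with 2 of 6 against 7.51% at an unadjusted p under 0.05: Mlxipl at -0.48 ± 0.18 (SE, adjusted p = 0.548) and Gckr at -0.42 ± 0.11 (SE, adjusted p = 0.414).

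Other genes of the pathway in high-fat wild-type liver were described by lists, chosen with results of these data already known. With AM251 1.91% of all genes passed in this tissue and diet. Of 20 measured genes reported as ChREBP targets, most of them lipogenic, 12 fell with AM251 and 0 rose, with a median of -0.90 against -0.0069 for all genes. Fasn, the fatty acid synthase, fell by 3.32 on the log2 scale (SE 0.34, adjusted p = 3.84e-08), Scd1, the stearoyl-CoA desaturase, fell by 2.08 (SE 0.25, adjusted p = 4.95e-07), and Acly, the ATP citrate lyase, fell by 2.33 (SE 0.30, adjusted p = 3.33e-06). Many of these genes are targets of SREBP-1c as well, and the list does not separate the factors. Of 5 measured genes of the pentose phosphate route, which supplies NADPH, 2 fell: Tkt at -0.86 ± 0.21 (SE, adjusted p = 0.0195) and Taldo1 at -0.32 ± 0.086 (SE, adjusted p = 0.0411), with a list median of -0.32.

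In the routes that share substrates with Khk and Gckr few genes passed, in the same comparison where 1.91% of all genes did. Of 18 measured genes of glycolysis and glucose entry 1 fell, the aldolase Aldoc at -0.49 ± 0.12 (SE, adjusted p = 0.0133), with a median of -0.087. Of 10 glucose output genes 1 fell, the gluconeogenic Fbp1 at -0.34 ± 0.067 (SE, adjusted p = 0.00164), with a median of -0.16. Of 5 other genes of the fructose and polyol route 0 passed limma's test and 0 had an unadjusted p under 0.05. In that list the fructose transporter gene Slc2a5 differed by 0.24 ± 0.13 (SE, adjusted p = 0.501).

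The same lists were tested for the genotype difference of the drug effect on the high-fat diet, where 0.564% of all genes passed. Of 20 ChREBP targets 10 passed with a more negative value in wild-type, with a median of -1.20 against 0.023 for all genes. The glycolysis, glucose output, fructose and pentose lists held 0 called genes. In these 3, 2, 0 and 4 genes had an unadjusted p under 0.05, against 7.46% of all genes. Fasn had the largest value, -4.33 ± 0.50 (SE, adjusted p = 3.63e-06). Summed hepatocyte marker intensity ran from 94000 to 101000 in high-fat wild-type vehicle livers and from 91500 to 95000 with AM251, and 1 of the 7 markers fell, the amino acid enzyme gene Tat at -1.26 ± 0.18 (SE, adjusted p = 1.68e-05). Of 9 macrophage markers and 7 adipocyte markers 0 passed limma's test in either direction in this comparison, and 0 had an unadjusted p under 0.05.

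The high-fat diet alone moved the same axis in liver. In wild-type vehicle mice Khk, Slc2a2 and Gckr rose, by 1.58-fold, 1.56-fold and 1.28-fold. With 3 of 6 genes higher and 0 lower, the share stood beside 1.69% of all genes, and the median was 0.60 against -0.011 for all genes. All 6 genes had an unadjusted p under 0.05, against 12.4% of all genes. This comparison uses the same high-fat vehicle arrays as the AM251 comparison above, so the directions of the 2 are not independent and are only set side by side here.

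Khk read 11.76, 11.84, 12.09, 11.84 and 11.96 on chow, against the high-fat values given above. High-fat array 1, at 12.08, lay just under the highest chow liver and the other 4 lay above all chow livers, with a difference of 0.66 ± 0.12 (SE, limma adjusted p = 0.00115). Gckr read 10.86, 10.85, 11.11, 10.87 and 10.81 on chow and differed by 0.36 ± 0.078 (SE, adjusted p = 0.00847), with no overlap. Slc2a2, the GLUT2 gene, read 11.48, 11.23, 10.74, 11.46 and 11.35 on chow and 11.78, 11.73, 12.07, 11.90 and 11.97 on the high-fat diet. These groups did not overlap and the difference was 0.64 ± 0.15 (SE, adjusted p = 0.0199), but it missed the threshold without high-fat array 3 (0.59, adjusted p = 0.0568) or chow array 3 (0.51, adjusted p = 0.118). With only the 2 groups fitted Gckr gave an adjusted p of 0.07.

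Of the 3 genes that did not pass, Mlxipl read 10.79, 11.29, 11.81, 10.99 and 11.37 on chow and 10.63, 10.80, 10.99, 10.74 and 10.86 on the high-fat diet. Its mean was lower on the high-fat diet, with a difference of -0.45 ± 0.13 (SE, adjusted p = 0.0626), and it passed without chow array 1 (-0.56, adjusted p = 0.0116) or 4 (-0.51, adjusted p = 0.0458). Tkfc differed by 0.77 ± 0.21 (SE, adjusted p = 0.0511) and passed without high-fat array 1 (0.89, adjusted p = 0.0276) or chow array 3 (0.97, adjusted p = 0.0109). Txnip differed by 0.57 ± 0.19 (SE, adjusted p = 0.118) and passed without high-fat array 1 (0.72, adjusted p = 0.0364). Summed macrophage marker intensity was 1380 to 2950 in the chow livers and 2160 to 4400 in the high-fat livers, 2 of 9 markers (Mpeg1 and Itgax) rose, and their part in these results was not tested.

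**Figure D3:**
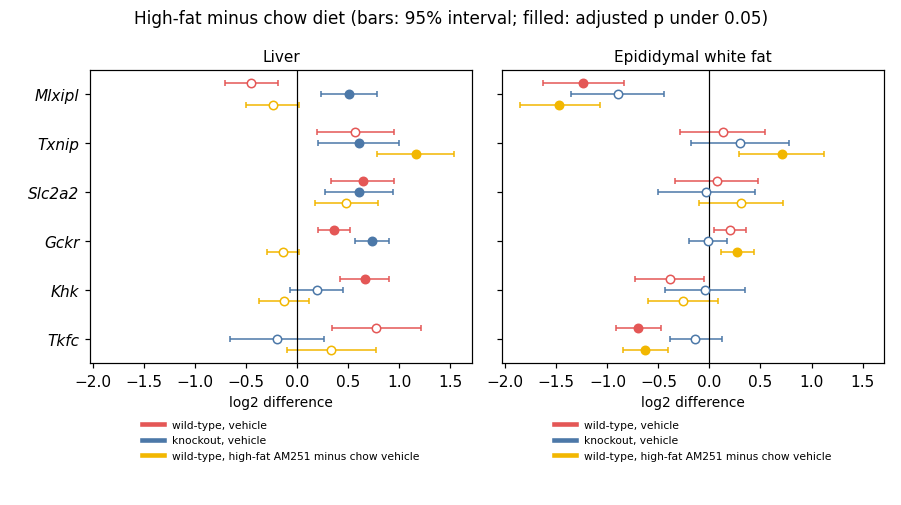
High-fat minus chow difference on the log2 scale (x axis) for each gene, for wild-type vehicle, knockout vehicle and high-fat AM251 wild-type against chow vehicle wild-type, liver on the left and fat on the right, with 95% intervals and filled points where the adjusted p is under 0.05. In liver Mlxipl lies at -0.45 in wild-type and 0.51 in knockout mice, and in fat it lies at -1.24 and -0.90.

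In knockout vehicle livers the high-fat diet raised Gckr, Slc2a2, Txnip and Mlxipl, 4 of 6 genes against 17% of all genes, with a median of 0.55 against -0.076. Gckr read 10.28, 10.37, 10.44, 10.53 and 10.66 on chow, below all 4 high-fat livers, and the difference was 0.73 ± 0.083 (SE, limma adjusted p = 5.03e-07), or 0.67 without arrays 15 and 17 (adjusted p = 2.88e-05). Mlxipl read 10.26, 10.90, 10.33, 10.80 and 10.65 on chow and 10.99, 11.11, 10.94 and 11.33 on the high-fat diet, without overlap. Its difference was 0.51 ± 0.14 (SE, adjusted p = 0.00949), and it missed the threshold without high-fat array 44 (0.43, adjusted p = 0.0505) or without both chow arrays 15 and 17 (0.31, adjusted p = 0.182).

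Slc2a2 differed by 0.60 ± 0.16 (SE, adjusted p = 0.00954), or 0.42 without arrays 15 and 17 (adjusted p = 0.113). Txnip read 7.83, 8.20, 8.40, 8.19 and 8.60 on chow and 8.86, 8.79, 8.96 and 8.78 on the high-fat diet, again without overlap. The Txnip difference was 0.60 ± 0.20 (SE, adjusted p = 0.0325), and the call was lost without high-fat array 40 (0.60, adjusted p = 0.0676), 42 (0.56, adjusted p = 0.0872) or 44 (0.62, adjusted p = 0.0541), chow array 15 (0.50, adjusted p = 0.0904) or both 15 and 17 (0.52, adjusted p = 0.152). The dimmer Txnip probe set, at a mean of 5.13 in liver, gave -0.24 (adjusted p = 0.184) in this comparison. Khk, at 0.19 ± 0.13 (SE, adjusted p = 0.297), and Tkfc, at -0.20 ± 0.23 (SE, adjusted p = 0.559), did not pass in knockout livers. With only the 2 groups fitted Mlxipl (adjusted p = 0.0758) and Slc2a2 (adjusted p = 0.0813) missed the threshold, and Txnip missed it after quantile normalization (adjusted p = 0.0674), with array weights (adjusted p = 0.084) and as the mean of both probe sets (0.18, adjusted p = 0.184). Among markers of cell types Tdo2 (0.43), Pecam1 (0.73) and Cela1 (0.94) rose and Krt19 (-0.69), Pparg (-0.65) and Adipoq (-0.44) fell in this comparison, and their part was not tested.

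The diet effect itself differed between genotypes for Mlxipl, by -0.95 ± 0.19 (SE, limma adjusted p = 0.00297) as wild-type minus knockout: the mean was lower after high-fat feeding in wild-type and higher in knockout livers. It was the only 1 of 6 genes to pass, against 4.17% of all genes. The value was -0.76 (adjusted p = 0.036) without chow knockout arrays 15 and 17, and with only the compared groups fitted the adjusted p was 0.0503. Tkfc at 0.98 ± 0.31 (SE, adjusted p = 0.0656), Gckr at -0.37 ± 0.11 (SE, adjusted p = 0.0525) and Khk at 0.47 ± 0.17 (SE, adjusted p = 0.123) missed the threshold. Each of these 3 passed without a single array: Tkfc without high-fat wild-type array 1 (1.09, adjusted p = 0.0399), chow knockout array 18 (1.10, adjusted p = 0.0276) or chow wild-type array 3 (1.17, adjusted p = 0.0178), Gckr without chow knockout array 18 (-0.39, adjusted p = 0.0375) or 19 (-0.42, adjusted p = 0.0219), and Khk without high-fat wild-type array 1 (0.59, adjusted p = 0.0297).

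Among ChREBP targets in liver, 4 of 20 rose with high-fat feeding of wild-type mice, where 1.69% of all genes passed, with a median of 0.59. Rgs16, a regulator of G protein signalling, rose by 2.86 ± 0.54 (SE, adjusted p = 0.00211), the hormone gene Fgf21 by 1.51 ± 0.29 (SE, adjusted p = 0.00259) and Acaca, an acetyl-CoA carboxylase, by 0.89 ± 0.20 (SE, adjusted p = 0.0119), and the fourth was Pnpla3. In knockout mice 3 of 20 rose, a share not above the 17% of all genes called there, with a median of 0.026, and these included Rgs16 at 2.53 ± 0.58 (SE, adjusted p = 0.00243) and Fgf21 at 0.91 ± 0.31 (SE, adjusted p = 0.038), the third being Klf10. In the glycolysis list 1 of 18 genes rose in wild-type livers, the lactate dehydrogenase gene Ldha at 0.37 ± 0.099 (SE, adjusted p = 0.0435). In the glucose output list 1 of 10 rose, the pyruvate carboxylase gene Pcx at 0.56 ± 0.12 (SE, adjusted p = 0.0064).

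In chow-fed vehicle mice Mlxipl and Gckr were lower in knockout than in wild-type liver. The comparisons of genotypes share their vehicle arrays with the diet comparisons above. With 2 of 6 genes lower and 0 higher, against 6.77% of all genes, the median was -0.083 against 0.040 for all genes. Mlxipl differed by -0.66 ± 0.13 (SE, 95% interval -0.92 to -0.40, limma adjusted p = 0.00118), 1.58-fold lower in knockouts, with overlapping ranges: knockout array 16 at 10.90 lay above wild-type array 1 at 10.79. Without knockout arrays 15 and 17, which were also the lowest for Mlxipl, the difference was -0.47 (adjusted p = 0.0947), and that of Gckr was -0.38 (adjusted p = 0.029). Gckr differed by -0.44 ± 0.078 (SE, 95% interval -0.60 to -0.28, adjusted p = 0.000414), with every knockout liver, at 10.28 to 10.66, below every wild-type liver, at 10.81 to 11.11. The other 4 genes lay between -0.19 for Slc2a2 and 0.15 for Tkfc. When only the 2 groups compared were fitted, neither Mlxipl (adjusted p = 0.182) nor Gckr (adjusted p = 0.137) passed. Summed macrophage marker intensity was 1380 to 2950 in the wild-type and 2490 to 4080 in the knockout livers, and 1 of the 9 markers, Clec4f, was higher (0.55). Also higher in knockouts were the bile duct and mesothelial Krt19 (0.58), the bile duct Krt7 (0.48), Adipoq (0.39) and Acta1 (0.43). The part of these markers in the Mlxipl and Gckr differences was not tested.

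On the high-fat diet 0 of 6 genes passed limma's test between knockout and wild-type vehicle livers, against 1.19% of all genes, and 3 of 6 had an unadjusted p under 0.05, against 12.2%. Tkfc read 10.03, 10.08, 9.59 and 10.23 in knockouts, below every wild-type value given above, with a difference of -0.83 ± 0.23 (SE, adjusted p = 0.064). Khk differed by -0.45 ± 0.13 (SE, adjusted p = 0.0749). Both passed without wild-type array 1, Tkfc at -0.94 (adjusted p = 0.0326) and Khk at -0.57 (adjusted p = 0.00801). Mlxipl, at 0.29 ± 0.14 (SE, adjusted p = 0.379), had the opposite sign to its value on chow. Of the ChREBP targets 4 of 20 were lower in high-fat knockout livers, among them Me1, the malic enzyme, at -1.45 ± 0.27 (SE, adjusted p = 0.00209), and the others were Elovl6, Fasn and Pnpla3.

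High-fat AM251 livers were also compared with chow vehicle livers of wild-type mice. Both groups enter comparisons above, so these values only stand beside them. Only Txnip passed, 1 of 6 genes against 4.78% of all genes. It read 8.13, 8.39, 7.62, 8.24 and 8.48 in chow vehicle livers and 9.01 to 9.71 in high-fat AM251 livers, a 2.23-fold rise without overlap (1.16 ± 0.19, SE, limma adjusted p = 7.25e-05). The dimmer Txnip probe set gave -0.09 (adjusted p = 0.735) here, and over the liver arrays its correlation with the brighter one was -0.434. Khk at -0.13 ± 0.12 (SE, 95% interval -0.38 to 0.11) and Gckr at -0.14 ± 0.078 (SE, 95% interval -0.30 to 0.02) had overlapping arrays, and Slc2a2 differed by 0.48 ± 0.15 (SE, adjusted p = 0.0622). Among markers of cell types the hepatocyte Tat (-1.57) fell and the macrophage Adgre1 (1.53) and Marco (1.64) rose. Their part in the Txnip rise was not tested.

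In epididymal fat the axis looked different. Mlxipl lay at the 92.6th percentile of all probe sets, Txnip at the 99.2nd, Khk at the 77.7th and Tkfc at the 66.7th, while Gckr at the 36.8th and Slc2a2 at the 29.7th lay below the median of all probe sets. Between chow wild-type vehicle tissues, on arrays centred on their medians, all 6 genes differed, against 80.4% of all genes. Khk was 26.7-fold higher in liver (log2 difference 4.74 ± 0.14, SE), Tkfc 12.2-fold (3.61 ± 0.18) and Mlxipl 3.21-fold (1.68 ± 0.17). Slc2a2 and Gckr were higher in liver too, by 7.67 and 7.04 on the log2 scale, but nothing here shows their fat signal to be above background, so no fold is given for them. Txnip was 7.35-fold lower in liver (-2.88 ± 0.20, SE, limma adjusted p = 1.06e-20), but its dimmer probe set read 1.07 higher in liver. Because the tissues appear to have been normalized apart, the scale of these tissue differences is uncertain.

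**Figure D4:**
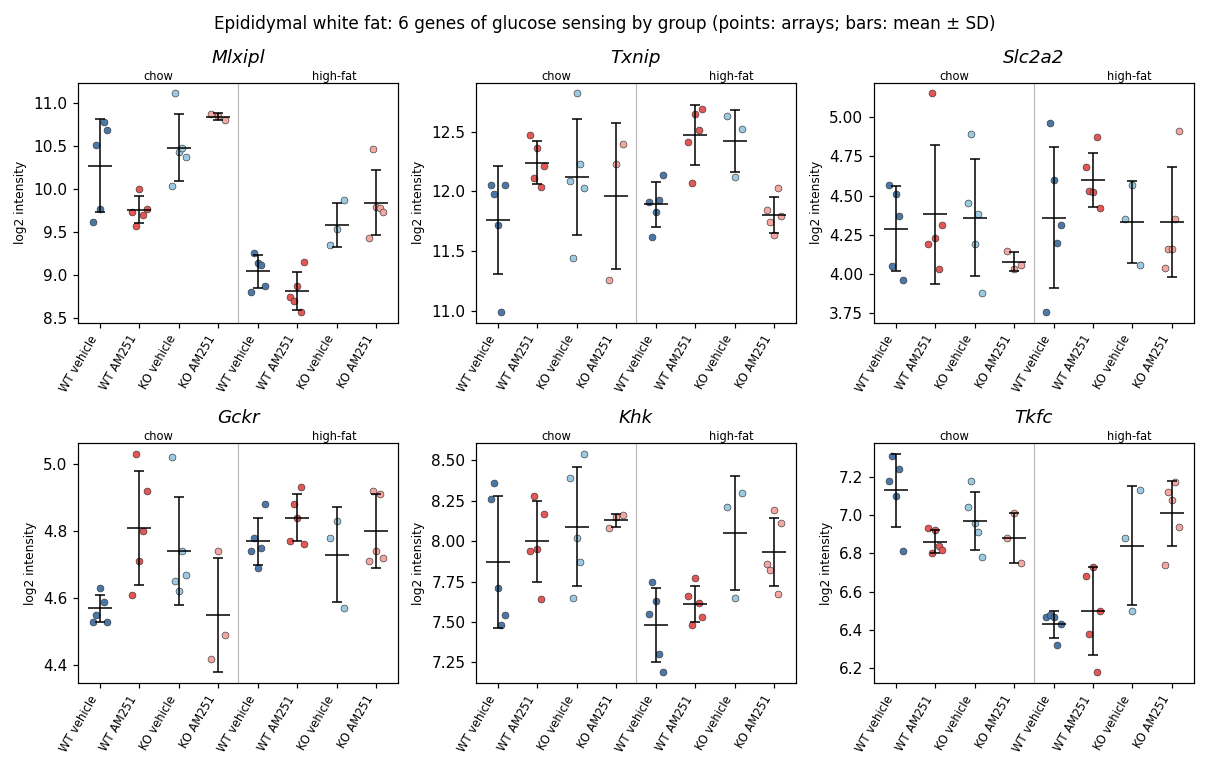
Log2 intensity of the 6 genes in each fat array (points) with the mean and SD of each group (bars), laid out as for liver. For Mlxipl both high-fat wild-type groups, with means of 9.04 and 8.81, lie below the other 6 groups, whose means run from 9.58 to 10.84.

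The order of the fat groups was widest for Mlxipl, whose means spanned 2.03. Its highest group was chow knockout AM251 at 10.84 ± 0.04 (SD, n = 3), and the gaps wider than the larger SD were the 0.54 between high-fat knockout vehicle at 9.58 and high-fat wild-type vehicle at 9.04 and the 0.23 between the latter and high-fat wild-type AM251 at 8.81. Tkfc showed the same split, with a gap of 0.34 between high-fat knockout vehicle at 6.84 and high-fat wild-type AM251 at 6.50. Neighbouring Txnip, Khk and Slc2a2 groups in fat did not differ beyond the larger SD anywhere in their order, and Gckr had 1 such gap, of 0.16.

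The high-fat diet lowered Mlxipl and Tkfc in wild-type vehicle fat. With 2 of 6 genes lower and 0 higher, the share stood beside 24.5% of all genes, so the count is not far from the background of this comparison. The median of the 6 genes was -0.16 and that of all genes 0.024. Mlxipl read 9.62, 10.51, 9.77, 10.78 and 10.69 on chow and 8.80, 9.26, 9.14, 9.11 and 8.87 on the high-fat diet. No high-fat value reached the chow range, and the level was 2.36-fold lower (-1.24 ± 0.19, SE, 95% interval -1.63 to -0.84, limma adjusted p = 1.51e-05).

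Tkfc read 7.18, 7.31, 7.10, 7.24 and 6.81 on chow and 6.47, 6.48, 6.47, 6.32 and 6.43 on the high-fat diet. These did not overlap, and the level was 1.62-fold lower (-0.70 ± 0.11, SE, adjusted p = 1.39e-05). Khk, in the same route, differed by -0.39 ± 0.17 (SE, adjusted p = 0.0929), or -0.48 without chow array 4 (adjusted p = 0.0431), and Txnip by 0.13 ± 0.20 (SE, adjusted p = 0.718). Summed intensity of 9 macrophage markers was 2890 to 4100 in chow and 6070 to 17300 in high-fat wild-type vehicle fat, where 7 of the 9 rose, while that of 7 adipocyte markers was 63500 to 69800 and 60200 to 73300. Within the adipocyte list Plin1 (-0.55), Pparg (-0.46) and Adipoq (-0.23) fell and Lep rose (0.94). Of 5 mesothelial markers 3 fell, Krt19 (-1.11), Wt1 (-1.07) and Upk3b (-0.61), and of 8 endothelial markers 3 fell, Tie1, Kdr and Robo4, and Pecam1 rose. Summed hepatocyte marker intensity was 13100 to 15400 on chow and 3700 to 7520 on the high-fat diet. Within that list Alb (-2.13), Cyp2e1 (-1.45) and Tdo2 (-0.94) fell and Ttr rose (0.21). The bile duct Krt7 (-0.58) and Sox9 (-0.90) fell and the pancreatic Cela1 rose (1.70). The part of these cell markers in the lower Mlxipl and Tkfc was not tested.

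In knockout vehicle fat the same diet moved 0 of 6 genes past the threshold, against 0.00522% of all genes, with 1 of 6 against 7.07% at an unadjusted p under 0.05. That 1 was Mlxipl, which read 10.03, 11.11, 10.43, 10.48 and 10.37 on chow and 9.35, 9.53 and 9.87 on the high-fat diet, without overlap (-0.90 ± 0.22, SE, limma adjusted p = 0.201). The genotype difference of the diet effect was -0.34 ± 0.30 for Mlxipl (SE, 95% interval -0.94 to 0.27, adjusted p = 0.575), so a difference between genotypes was not detected for it. For Tkfc it was -0.56 ± 0.16 (SE, adjusted p = 0.0357), the only 1 of 6 genes to pass, against 6.34% of all genes. The Tkfc call was lost, at -0.57 to -0.42 and adjusted p of 0.0504 to 0.177, without high-fat knockout array 42 or 44, high-fat wild-type array 1 or 5, chow knockout array 17, 18 or 19, or chow wild-type array 1, 2 or 4. It was also lost with only the compared groups fitted (adjusted p = 0.0564) and after quantile normalization (adjusted p = 0.0681).

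On the high-fat diet Khk and Tkfc were higher in knockout than in wild-type vehicle fat, 2 of 6 genes against 15.9% of all genes (the arrays are again those of the diet comparison), with a median of 0.47 against -0.0092 for all genes. Tkfc read 6.88, 6.50 and 7.13 in knockouts, all above the 5 wild-type values, with a difference of 0.41 ± 0.12 (SE, limma adjusted p = 0.0224), and lost the call without knockout array 42 (0.38, adjusted p = 0.0874) or 44 (0.26, adjusted p = 0.262) or wild-type array 5 (0.38, adjusted p = 0.0534). Khk read 8.21, 7.65 and 8.30 in knockouts and 7.55, 7.75, 7.63, 7.30 and 7.19 in wild-type mice, where knockout array 43 lay within the wild-type range. Its difference was 0.57 ± 0.19 (SE, adjusted p = 0.0402), and the call was lost without knockout array 42 (0.49, adjusted p = 0.17) or 44 (0.45, adjusted p = 0.231) or wild-type array 1 (0.59, adjusted p = 0.0558), 5 (0.52, adjusted p = 0.088) or 6 (0.50, adjusted p = 0.099).

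Mlxipl read 9.35, 9.53 and 9.87 in high-fat knockout fat, above all wild-type values, with a difference of 0.55 ± 0.22 (SE, adjusted p = 0.098). Summed macrophage marker intensity was 3150 to 3440 in these knockouts against 6070 to 17300 in wild-type mice, 6 of 9 markers were lower, and their part in the Khk and Tkfc differences was not tested. With only the 2 groups fitted Khk (adjusted p = 0.0571) and Tkfc (adjusted p = 0.068) missed the threshold, while Mlxipl (adjusted p = 0.0337) and Txnip (0.54, adjusted p = 0.0349) passed it, so the genes called were exchanged. Khk also missed it after quantile normalization (adjusted p = 0.0524). Other markers called here were the mesothelial Upk3b, Wt1, Krt19 and Msln and the endothelial Kdr, Robo4 and Sox18, all higher. The adipocyte Plin1 and Adipoq were higher and Lep was lower. The hepatocyte Alb (2.29), Cyp2e1 (1.57) and Tdo2 (0.88) were higher, and the pancreatic Cela1 was lower (-1.54). Summed hepatocyte marker intensity was 14200 to 18300 in these knockouts and 3700 to 7520 in wild-type fat. The part of these markers was not tested either. On chow 0 of 6 genes passed limma's test between genotypes in fat, against 0.0575% of all genes, and 1 of 6 had an unadjusted p under 0.05, against 9.05%, namely the dim Gckr at 0.17 ± 0.081 (SE, adjusted p = 0.514).

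AM251 moved none of the 6 genes past the threshold in fat. In high-fat wild-type fat 0 of 6 passed limma's test against 1.11% of all genes, and 1 of 6 had an unadjusted p under 0.05 against 13.4%. That gene was Txnip, which read 11.91, 11.62, 11.83, 11.93 and 12.14 with vehicle and 12.41, 12.07, 12.65, 12.51 and 12.69 with AM251. A single treated pad, array 34, lay within the vehicle range, and the difference was 0.58 ± 0.20 (SE, adjusted p = 0.173). In high-fat knockout fat Txnip read 12.63, 12.12 and 12.52 with vehicle and 11.84, 11.74, 11.63, 12.03 and 11.79 with AM251, lower in every treated pad (-0.62 ± 0.24, SE, adjusted p = 0.999).

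The genotype difference of the drug effect on Txnip in high-fat fat was 1.20 ± 0.31 (SE, 95% interval 0.56 to 1.83, limma adjusted p = 0.0741), just outside the threshold, and 1.30 (adjusted p = 0.0316) without wild-type AM251 array 34. In that test 0 of 6 genes passed against 0.407% of all genes, with 1 of 6 against 10.8% at an unadjusted p under 0.05. In high-fat knockout fat 0 of 6 passed against 0% of all genes, and Txnip alone had an unadjusted p under 0.05, against 3.72% of all genes. The matching liver value for the genotype difference of Txnip was 0.77 ± 0.27 (SE, adjusted p = 0.338).

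On chow, AM251 in wild-type fat gave 0 of 6 past the threshold against 0% of all genes, and 4 of 6 against 13.4% at an unadjusted p under 0.05. Mlxipl read 9.73, 9.57, 10.00, 9.70 and 9.77 with the drug, overlapping the vehicle pads, with a difference of -0.52 ± 0.19 (SE, limma adjusted p = 0.252). Txnip differed by 0.48 ± 0.20 (SE, adjusted p = 0.303), Tkfc by -0.27 ± 0.11 (SE, adjusted p = 0.275) and Gckr by 0.25 ± 0.081 (SE, adjusted p = 0.212). In chow knockout fat 0 of 6 passed against 0.0157% of all genes, with 1 of 6, Gckr at -0.20 ± 0.093 (SE, adjusted p = 0.606), against 8.13% at an unadjusted p under 0.05. The genotype difference on chow gave 0 of 6 against 0.00522%, with 3 of 6 against 14.8% unadjusted, Mlxipl at -0.87 ± 0.30 (SE, adjusted p = 0.18), Gckr at 0.44 ± 0.12 (SE, adjusted p = 0.136) and Txnip at 0.64 ± 0.31 (SE, adjusted p = 0.335). The diet difference in wild-type fat gave 0 of 6 against 0%, with 1 of 6 against 10.5% unadjusted, Tkfc at 0.33 ± 0.15 (SE, adjusted p = 0.455).

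High-fat AM251 fat compared with chow vehicle fat of wild-type mice, which shares its chow arrays with the diet comparison, gave 4 of 6 genes past the threshold, 2 higher and 2 lower, against 21.7% of all genes. Mlxipl was 2.77-fold lower (-1.47 ± 0.19, SE, limma adjusted p = 4.43e-06) and Tkfc 1.55-fold lower (-0.63 ± 0.11, SE, adjusted p = 7.93e-05). Txnip was 1.63-fold higher (0.71 ± 0.20, SE, adjusted p = 0.0116), or 0.52 higher without chow array 4 (adjusted p = 0.0633) and 0.07 higher by its dimmer probe set (adjusted p = 0.78). The dim Gckr read higher by 0.27 ± 0.081 (SE, adjusted p = 0.0141), but its signal in fat is not shown to be above background, so no fold is given. None of these 4 genes, which passed on these same arrays, had overlapping groups, and the share of all genes without overlap was not counted. The macrophage Mpeg1 (2.41), Itgax (2.38), Adgre1 (1.37), Marco (0.63) and Csf1r (0.46) rose in this comparison. So did the endothelial Pecam1 and Cdh5 and the pancreatic Cela1 (1.08). The hepatocyte Alb (-1.76), Tdo2 and Cyp2e1, the adipocyte Pparg and Plin1 (-0.40) and the mesothelial Wt1 (-0.91) and Krt19 fell. The endothelial Tie1 and the bile duct Sox9 fell too. The part of these markers was not tested.

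Whether the drug's effect on the high-fat diet differed between tissues was tested in wild-type mice as liver minus fat. Gckr, at -0.52 ± 0.11 (SE, limma adjusted p = 0.00268), and Khk, at -0.87 ± 0.20 (SE, adjusted p = 0.0121), passed, 2 of 6 genes against 1.87% of all genes. The labels do not say whether liver and fat arrays of the same number come from the same mouse. With that number as a block limma gave -0.46 (adjusted p = 0.122) for Gckr and -0.75 (adjusted p = 0.103) for Khk. That fit held only arrays of the compared groups whose number occurs in both tissues. The part of the pairing and that of the fewer arrays in the lost calls cannot be told apart. In fat, Khk differed by 0.13 ± 0.17 and Gckr by 0.07 ± 0.081 (SE) between AM251 and vehicle. Nothing here shows the Gckr signal in fat to be above background, where a drug effect could not be seen. The tissue difference of Gckr therefore does not show that the drug spares it in fat.

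Other genes of the pathway in fat went beyond the 6. With the high-fat diet in wild-type vehicle mice, where 24.5% of all genes passed, 7 of 20 ChREBP targets fell and 2 rose, with a median of -0.43 against 0.024 for all genes. The 2 that rose were Fgf21 and Klf10. Pnpla3, a lipid droplet protein, fell by 1.88 on the log2 scale (SE 0.30, adjusted p = 1.88e-05), Thrsp, the Spot 14 lipogenic protein, fell by 0.99 (SE 0.16, adjusted p = 2.91e-05), and Acaca fell by 1.91 (SE 0.32, adjusted p = 3.49e-05). Of 18 glycolysis and glucose entry genes 6 rose and 2 fell, with a median of 0.087. The 2 that fell were Pfkm and Hk2, the insulin-responsive hexokinase of muscle and fat, which fell by 1.28 (SE 0.16, adjusted p = 1.13e-06), while Hk3, a hexokinase of myeloid cells, rose by 2.19 ± 0.32 (SE, adjusted p = 5.85e-06) and Pfkfb4 by 1.39 ± 0.20 (SE, adjusted p = 4.43e-06). Of 10 glucose output genes 5 fell, among them the pyruvate carboxylase gene Pcx at -0.88 ± 0.14 (SE, adjusted p = 2.75e-05), and the others were Foxo1, Pck1, Slc37a4 and Ppargc1a.

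Between genotypes on the high-fat diet, where 15.9% of all genes passed, 5 of 20 ChREBP targets were higher in knockout fat and 0 lower, with a median of 0.22, including Adipor2, an adiponectin receptor, at 0.75 ± 0.15 (SE, adjusted p = 0.000561) and Thrsp at 0.86 ± 0.19 (SE, adjusted p = 0.00137), beside Acacb, Fabp1 and Acaca. Of the glycolysis list 2 were higher and 4 lower, with Hk3 at -2.28 ± 0.36 (SE, adjusted p = 5.43e-05) and Hk2 at 0.88 ± 0.18 (SE, adjusted p = 0.000776), the others being Pfkm, which was higher, and Pfkfb4, Pfkp and Pkm, which were lower. With AM251 in high-fat wild-type fat 1.11% of all genes passed. The drug raised 1 of 10 glucose output genes, Pck1, which also serves glyceroneogenesis in fat, by 1.70 ± 0.25 (SE, adjusted p = 0.000891). It lowered 2 of 18 glycolysis genes, Pfkfb4 at -0.85 ± 0.20 (SE, adjusted p = 0.0245) and Pfkp at -0.43 ± 0.10 (SE, adjusted p = 0.0288), and raised 1 of 20 ChREBP targets, Adipor2 at 0.55 ± 0.13 (SE, adjusted p = 0.0291). The macrophage marker sums given above moved with the diet and genotype values of this list, and their part was not tested.

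Arrays of the same group also differed from one another, and the genes were compared on what remains after each group's mean is removed. In liver 6 of 15 pairs passed a two-sided permutation test within groups, adjusted over the 15 pairs by Benjamini-Hochberg (39 arrays). The share among pairs of other liver genes was not counted, so these correlations are not shown to be particular to the listed genes. Gckr and Khk had the highest correlation, r = 0.61 (adjusted permutation p = 0.00285) and rho = 0.61 (adjusted permutation p = 0.0051), and r was 0.65 without the 2 arrays farthest from the median of the first gene. Khk and Tkfc, the enzymes of fructose breakdown, had r = 0.51 (adjusted permutation p = 0.0116) and rho = 0.49 (adjusted permutation p = 0.0202), and r was 0.46 without the 2 farthest arrays.

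**Figure D5:**
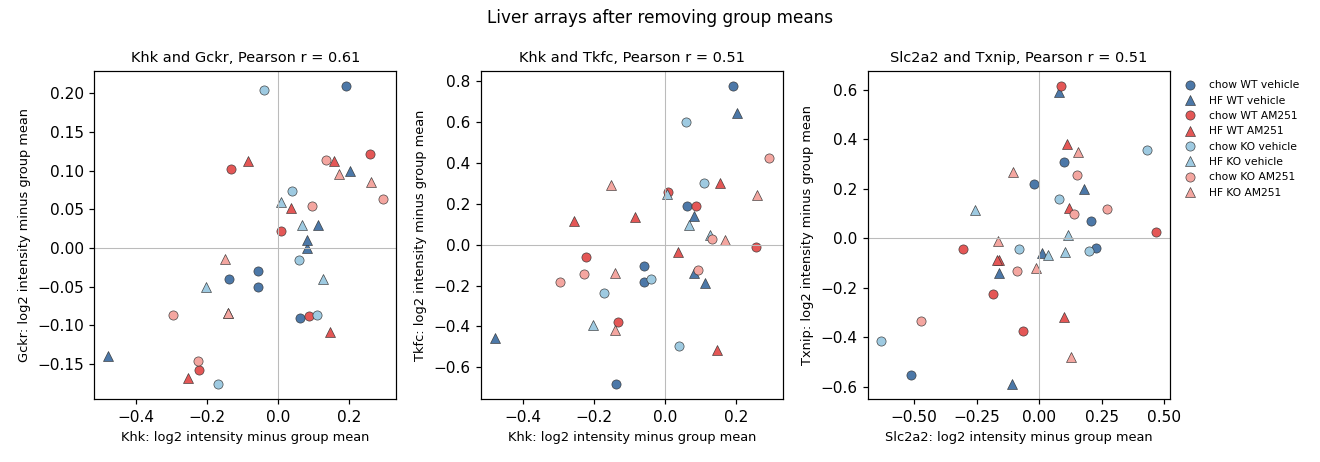
Residual log2 intensity of each liver array after removal of its group mean, for the 3 gene pairs with the smallest adjusted p among the 15, each point an array. Gckr and Khk rise together with r = 0.61, Khk and Tkfc with r = 0.51, and Slc2a2 and Txnip with r = 0.51.

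Slc2a2 and Txnip had r = 0.51 (adjusted permutation p = 0.0124) and rho = 0.49 (adjusted permutation p = 0.0202), and without the 2 farthest arrays r was 0.38 and no longer passed (adjusted permutation p = 0.12). The other 3 pairs, Mlxipl with Khk (r = 0.39, adjusted permutation p = 0.0173), Mlxipl with Tkfc (r = 0.49, adjusted permutation p = 0.0457) and Khk with Slc2a2 (r = 0.37, adjusted permutation p = 0.0457), passed neither by rank nor without the 2 farthest arrays. Without arrays 15 and 17 of the chow knockout vehicle livers r was 0.60 for Gckr with Khk, 0.52 for Khk with Tkfc, 0.46 for Slc2a2 with Txnip, 0.40 for Mlxipl with Khk and 0.66 for Mlxipl with Tkfc, all 5 still past the threshold, and 0.34 for Khk with Slc2a2, which was not (adjusted permutation p = 0.122). In fat 0 of 15 pairs passed over 36 arrays, and 1 had an unadjusted permutation p under 0.05, Slc2a2 with Txnip at r = -0.32 (p = 0.0471, adjusted p = 0.499).

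As a description with no test, the genes whose log2 intensity ran closest to Mlxipl over all 39 liver arrays were Vegfa, Deptor and Leng8, with r of 0.81, 0.77 and 0.75, and over all 36 fat arrays Aacs, Acaca and Tmem79, with r of 0.96, 0.96 and 0.94. For Txnip they were Fnip1, Hadhb and Lmbrd1 in liver, with r of 0.79, 0.77 and 0.76, and Gstt2, Tpst1 and St6galnac2 in fat, with r of 0.76, 0.76 and 0.71. The arrays of a tissue share the diet, genotype and drug groups, which enter these correlations.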

How the data were processed

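Expression was measured on 1-colour arrays. The authors deposited 1 linear intensity per probe set and array, made with RMA per the submitters' processing notes, whose version and settings are not given in the sources used here. Summarized and normalized intensities of this kind compress differences of dim probe sets, and their number per group limits the precision. The table held 38385 probe sets, of which 24478 had 1 gene symbol in the platform table, 65 had several and 13842 were not listed. The brightest probe set per gene and tissue was kept.

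The log2 of the intensities was fitted per tissue with limma 3.58.1 in R 4.3.3 (with version 1.17.8 of data.table), with a mean for each of the 8 groups and all arrays of the tissue, and p-values were adjusted by Benjamini-Hochberg over 19147 genes. Comparisons between tissues used arrays centred on their medians. Intervals are 95% intervals of the fit. Correlations within groups used 1e+05 permutations, and only 15 pairs per tissue could be formed, so the adjustment ran over these. Python 3.11.15, numpy 2.4.6, scipy 1.17.1 and matplotlib 3.10.9 served for correlations, sequences and figures. The fit was tested on simulated data. Arrays of a group carry different numbers in the labels. Each is taken here as a separate mouse, which the labels do not say. The limma p-values test each contrast against the spread between arrays within the groups fitted.

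The genes and the gene lists were chosen with earlier results of these data known. From each list at most 3 genes with the smallest p past the threshold are named per comparison, or at most 2 as values where none passed, and the remaining genes of counts of 5 or fewer are named so that the count is complete. Alternatives covered normalization, dim genes, probe sets, array weights, the arrays fitted, the variance prior, a replicate block and each array left out.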

Additional observations from a re-analysis of the deposited data

Results flagged for a closer look

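In 84 combinations of gene, tissue and group with 4 or 5 arrays, 3 held an array far from the others, where chance gives about 1 in 20. Khk in high-fat wild-type vehicle liver array 1 read 12.08, and the other 4 arrays read 12.64 to 12.76. Gckr in chow wild-type vehicle liver array 3 read 11.11, with the others at 10.81 to 10.87. Slc2a2 in chow wild-type AM251 fat array 11 read 5.15, with the others at 4.03 to 4.31.

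Effects that differed between groups by a test of the difference itself, limma's contrast of contrasts, were the following. The AM251 effect in high-fat liver differed between wild-type and knockout mice for Khk (-0.90) and Gckr (-0.49). In wild-type liver it differed between diets for Khk (-0.74). The diet effect differed between wild-type and knockout mice for Mlxipl in liver (-0.95) and for Tkfc in fat (-0.56). The AM251 effect in high-fat wild-type mice differed between liver and fat for Khk (-0.87) and Gckr (-0.52), whose signal in fat is not shown to be above background.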

How the results depend on the processing

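Counts of the 6 genes past the threshold stayed within 1.5 times the reported count in 506 of 584 alternatives over 28 comparisons. Counts of 0 that stayed at 0 are among the 506, so this share does not measure how far the calls held. Among single genes 857 alternatives kept the side of the threshold, 72 lost the call, 47 gained one and 3 reversed a call's direction. Changes of sign between values that did not pass are counted among the 857. The dimmer Txnip probe set gave such values for the diet in wild-type liver (-0.09, main 0.57) and for genotype in high-fat fat (-0.01, main 0.54). The 3 reversals came from the dimmer Txnip probe set, at 1.07 between liver and fat, -0.09 between high-fat AM251 and chow vehicle liver and -0.24 for the diet in knockout liver. The cause of the changes below was not tested, except that the fit of only the compared groups and the block fit between tissues hold fewer arrays. The 2 calls for AM251 in high-fat wild-type liver, Khk and Gckr, were kept in every alternative run.

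With array weights, fat counted 1 gene for the genotype difference of the AM251 effect on the high-fat diet and 1 for the diet in knockouts, and liver counted 2 for the diet difference of the AM251 effect and 2 for genotype on the high-fat diet. With only brighter genes tested, the counts were 1 for that fat genotype difference, and in liver 1 for AM251 in chow knockouts, 3 for the genotype difference of the diet effect, 2 for high-fat AM251 against chow vehicle, 5 for the diet in wild-type mice and 2 for genotype on the high-fat diet. With only the compared groups fitted, they were 1 for the fat genotype difference of AM251, 0 for the fat genotype difference of the diet effect, and in liver 0 for the diet difference of AM251, 0 for the genotype difference of the diet effect, 2 for the diet in knockouts and 0 for genotype on chow. After quantile normalization they were 0 for the fat genotype difference of the diet effect, 1 for genotype in high-fat fat, 0 for the liver diet difference of AM251 and 1 for genotype in high-fat liver. With arrays centred on their medians, liver counted 1 for AM251 in chow knockouts, 2 for the genotype difference of the diet effect and 2 for high-fat AM251 against chow vehicle. The mean of all probe sets gave 2 for the liver genotype difference of the diet effect, and the other Txnip probe set gave 0 for high-fat AM251 against chow vehicle. Without chow knockout vehicle arrays 15 and 17 the counts were 1 for the diet in knockout liver and 1 for genotype in chow liver.

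Leaving out 1 array at a time gave 0 to 1 gene for the fat genotype differences of AM251 and of the diet effect, 0 to 2 for genotype in high-fat fat, and in liver 0 to 1 for AM251 in chow knockouts, 0 to 2 for the diet difference of AM251, 1 to 2 for the genotype difference of AM251 on the high-fat diet, 1 to 3 for the genotype difference of the diet effect, 2 to 4 for the diet in knockouts, 2 to 5 for the diet in wild-type mice and 0 to 2 for genotype on the high-fat diet. Of the 6 liver gene pairs, 3 passed by Spearman's rho and 2 without the 2 farthest arrays.

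Same-numbered chow and high-fat wild-type vehicle arrays did not deviate together (r of -0.17 to 0.22 over 5 pairs in liver and -0.13 to 0.06 over 4 in fat). With their number as a replicate block the liver diet count was 5, adding Mlxipl (-0.45, adjusted p = 0.022) and Tkfc (0.77, adjusted p = 0.0318). Liver and fat arrays of the same number correlated at -0.12 to 0.20 over 30 pairs. With that replicate block, fitted to only the same-numbered arrays of the compared groups, the tissue difference of AM251 counted 0 genes.

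Depth cannot be given for arrays. Gckr and Slc2a2 lay below the median probe set in fat, and nothing here shows their signal there to be above background.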

Other observations

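Partners and regulators around ChREBP form a list of 15 genes, of which 11 were measured. In knockout vehicle liver, where 17% of all genes passed, 4 of 11 passed with the diet. The high-fat diet raised Ppara, the fasting-responsive nuclear receptor, by 1.02 ± 0.18 (SE, limma adjusted p = 0.000157) and Usf1, an E-box binding factor, by 0.90 ± 0.31 (SE, adjusted p = 0.0381). It lowered Pparg, the adipogenic receptor, which fell by 0.65 on the log2 scale (SE 0.18, adjusted p = 0.0124), and Txn2, the mitochondrial thioredoxin, at -0.24 ± 0.075 (SE, adjusted p = 0.0237). In wild-type vehicle liver, where 1.69% of all genes passed, 0 of 11 passed limma's test with the diet. Of the 11, 5 had an unadjusted p under 0.05, against 12.4% of all genes. Between genotypes, Ppara was lower in chow knockout liver (-0.61 ± 0.17, SE, adjusted p = 0.0223) and Pparg in high-fat knockout liver (-1.19 ± 0.18, SE, adjusted p = 0.000326), each the only 1 of 11 in its comparison.

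In wild-type fat, where 24.5% of all genes passed, the high-fat diet raised 2 of these genes, the hypoxia factor Hif1a (0.39, adjusted p = 0.00645) and the thioredoxin reductase Txnrd1 (0.53, adjusted p = 0.00271), and lowered 3, Ppara (-0.78, adjusted p = 1.61e-05), Pparg and Txn2. With AM251 in high-fat wild-type fat 1 of 11 fell, against 1.11% of all genes called, Hif1a at -0.47 ± 0.11 (SE, adjusted p = 0.0241). In high-fat wild-type liver 0 of 11 passed limma's test with AM251, against 1.91% of all genes, and 3 had an unadjusted p under 0.05, against 11.2%. Of these Ppara at 0.46 ± 0.17 (SE, adjusted p = 0.216) and Usf2 at 0.29 ± 0.12 (SE, adjusted p = 0.293) had the smallest and the third was Mlx at -0.24 ± 0.10 (SE, adjusted p = 0.335).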
